A study of Mus musculus with 4 samples.

Results

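Genes of the TNF and TNF receptor superfamilies were read in 4 sorted populations of mouse CD4+ T cells. The family was taken as 35 genes, 20 receptors and 15 ligands, which were chosen by name with earlier results of these data known. Their probe sets were all those that the array's annotation assigns to exactly 1 gene of that list. This gave 49 probe sets for 32 of the 35 genes, out of 18194 genes with such a probe set on the array. Tnfrsf26, Tnfsf12 and Tnfsf13 had none, so they have no value of their own here.

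The cells were taken from 25 male B6/129 F2 mice, 5 to 8 weeks old, out of spleen and lymph node. The mice carry a Foxp3-GFP knock-in. In such mice green fluorescent protein (GFP) marks cells that express Foxp3, the transcription factor that defines regulatory T (Treg) cells. After depletion of cells bearing CD8, B220, CD11b, NK1.1 or DX5, CD4+ cells were sorted by GFP and by CD25, a chain of the high-affinity IL-2 receptor. The Foxp3+ groups were CD25hi and CD25lo, and the Foxp3- groups CD25+ and CD25-, all from knock-in mice and with no treatment named. Each group was 1 Affymetrix array, so animals were pooled, no group had replicates and no test of a difference was possible.

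Receptors of this superfamily are membrane proteins that cluster when a trimeric ligand, usually on a neighbouring cell, binds them. Most recruit TRAF adaptor proteins and switch on NF-kappaB, which favours survival and division, while a subset with a death domain in the cytoplasmic tail can also start cell death. On T cells several of them, such as OX40, 4-1BB, GITR and CD27, act as costimulatory receptors, and Treg cells are known for high surface levels of GITR, OX40 and TNFR2.

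Values are probe set intensities on a linear scale. An intensity of 10.1 was used as a floor, and a gene counted as measured when its highest array reached an intensity of 32.5. Of the 32 genes 21 were measured, 11 receptors and 10 ligands, and 17 of the 21 reached that intensity in all 4 arrays. The other 4, Tnfrsf13c, Tnfsf4, Tnfsf13b and Tnfsf14, passed through their brighter arrays, which helped to decide that they were measured. The levels of different genes are not compared, because probe sets differ in how strongly they bind. A gene was counted in a pairing of the arrays when the lower array of one pair exceeded the higher array of the other by at least 1.5-fold, and in a comparison of 2 arrays at 2-fold or more.

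The arrays fitted their labels for CD4 T cells, since all 10 measured T cell markers, Cd3e and Cd4 among them, reached the filter intensity in every array. Foxp3 read at least 1117 in the Foxp3+ arrays and at most 17.6 in the Foxp3- arrays. Markers of other cells were present and uneven. For CD8 T and NK cells the summed intensity of 13 markers was 702 and 754 in the Foxp3+ arrays and 2651 and 2625 in the Foxp3- arrays, although Eomes and Nkg7 on that list are also made by effector CD4 T cells. The sum of 17 myeloid and MHC class II genes was 528 in CD25hi Foxp3+, 1279 in CD25lo Foxp3+, 3505 in CD25+ Foxp3- and 2687 in the CD25- Foxp3- population, with Itgam, Cd14, Itgax, Siglech and Spi1 under the filter intensity in all 4. Most of the sum in CD25+ Foxp3- cells came from H2-Aa (1877) and H2-Ab1 (548). Of the other measured genes, Lyz2, Csf1r, Fcgr3, S100a8, S100a9, Cd68 and Mpeg1 were lower there than in CD25- Foxp3- cells. Tyrobp, Adgre1 and Fcer1g were higher there. In bulk RNA, a smaller share of expressing cells and less RNA per cell cannot be told apart.

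By the rule for pairings, the members past the limit toward Foxp3+ cells were receptors. In the pairing of both Foxp3+ against both Foxp3- arrays, 5 members were higher, all receptors, where 2.8% of the 9623 measured genes were higher. They were Tnfrsf1b, Tnfrsf4, Tnfrsf9, Tnfrsf13b and Tnfrsf18, each measured in all 4 arrays. In the same pairing 2 members were lower, both ligands, Fasl and Tnfsf14, where 1.93% of measured genes were lower. Of these, Tnfsf14 passed the filter through its Foxp3- arrays alone. No receptor was counted as lower and no ligand as higher, but some members lay just short of the limit. The ligand Tnfsf10 was higher in both Foxp3+ arrays with a gap of 1.47-fold, the receptor Cd27 higher with 1.48-fold and the ligand Tnfsf8 lower with 1.45-fold. All 7 counted members were still past the rule under the 5 processing alternatives tried, though some of these could not alter their values.

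Tnfrsf1b encodes TNFR2, the TNF receptor without a death domain that is largely confined to haematopoietic cells. It read 2051 in CD25hi Foxp3+ cells, 2289 in CD25lo Foxp3+ cells, 575 in the CD25+ Foxp3- array and 274 in the CD25- Foxp3- array. The Foxp3+ arrays were nearly level and the gap to the nearer Foxp3- array was 3.57-fold, which ranked 50 among all measured genes by size of gap in either direction. A second, dimmer probe set read 36.2 and 55.2 in the Foxp3+ arrays and 14.9 and 15.2 in the Foxp3- arrays, so it kept the split by Foxp3. It did not separate the Foxp3- arrays, which the brighter probe set put 2.10-fold apart.

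Tnfrsf18 encodes GITR, a costimulatory receptor used as a Treg marker. Its intensity was 3129 in CD25hi Foxp3+, 2672 in CD25lo Foxp3+, 815 in CD25+ Foxp3- and 607 in the CD25- Foxp3- population. The pairs did not overlap and the gap was 3.28-fold. Between the Foxp3- arrays the ratio was under 2-fold, so a step with CD25 alone was not counted for Tnfrsf18.

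Tnfrsf4 encodes OX40, which sustains survival of activated T cells. It read 3929 in CD25hi Foxp3+, 3087 in CD25lo Foxp3+, 1539 in CD25+ Foxp3- and 221 in the CD25- Foxp3- population. All 3 populations that bear CD25 or Foxp3 were thus far above CD25- Foxp3- cells, by 17.8-fold, 14.0-fold and 6.98-fold in that order. The gap between the Foxp3 pairs was narrower, at 2.01-fold, because CD25+ Foxp3- cells lay close below CD25lo Foxp3+ cells.

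Tnfrsf9 encodes 4-1BB (CD137), a receptor that appears on T cells after antigen recognition. Its brightest probe set read 1303 in CD25hi Foxp3+, 1558 in CD25lo Foxp3+, 556 in CD25+ Foxp3- and 110.0 in the CD25- Foxp3- population. The order of the arrays was the same in a second probe set, with 478, 769, 208 and 33.3, and the remaining one was under the floor in every array. The gap by Foxp3 was 2.35-fold, and CD25+ Foxp3- cells stood 5.05-fold above CD25- Foxp3- cells. In all 5 receptors of the Foxp3 pairing CD25+ Foxp3- cells lay between the Foxp3+ arrays and CD25- Foxp3- cells. Tnfrsf4 and Tnfrsf9 had the widest step between the Foxp3- arrays, at 6.98-fold and 5.05-fold.

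Tnfrsf13b encodes TACI, a receptor for BAFF and APRIL best known from B cells. It read 1275 and 1144 in the Foxp3+ arrays, 728 in the CD25+ Foxp3- array and 624 in the CD25- Foxp3- array. The gap was 1.57-fold, just past the limit. The B cell markers on the fixed list did not run one way. Cd79b, the 1 of them at the filter intensity in all 4 arrays, read 97.2 and 118 in the CD25hi and CD25lo Foxp3+ arrays and 58.4 and 69.2 in the CD25+ and CD25- Foxp3- arrays, the same direction as Tnfrsf13b. The sum over the list was 194 and 253 against 301 and 385. Ms4a1 and Ly86 were higher in both Foxp3- arrays than in both Foxp3+ arrays. Cd22 read 81.4 in CD25+ Foxp3- cells but 31.6 in CD25- Foxp3- cells, below 40.3 in CD25lo Foxp3+ cells. Cd79a, Pax5, Blnk, Ebf1, Cr2 and Fcer2a were under the filter intensity throughout. The part of B cell RNA in the Tnfrsf13b values was not tested.

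**Figure D1:**
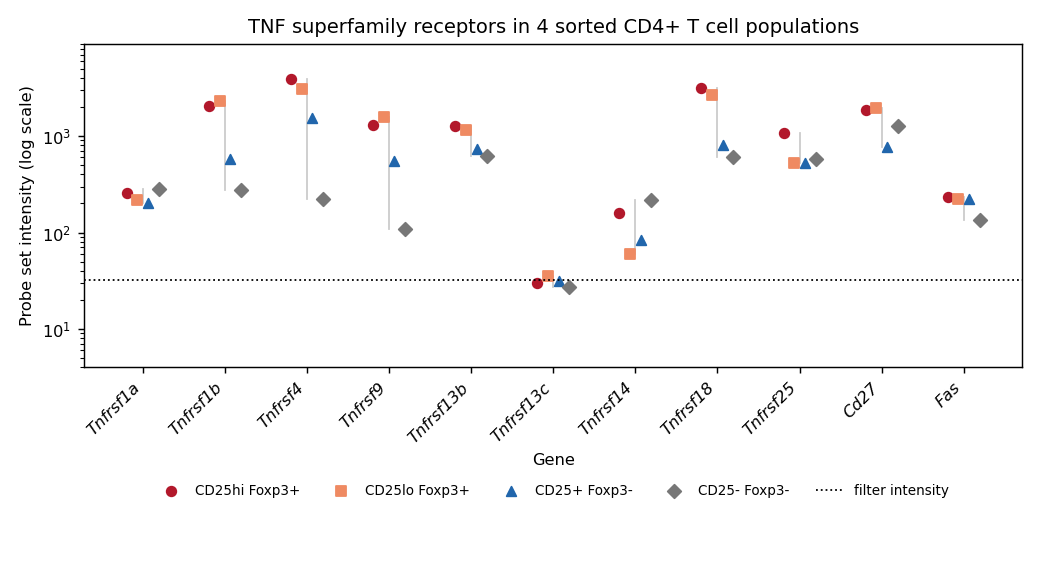
Intensity of each measured TNF superfamily receptor (horizontal axis, 11 genes) in the 4 arrays, 1 symbol per population, on a log scale without error bars because each population is 1 array; the dotted line is the filter intensity of 32.5. Tnfrsf1b, Tnfrsf4, Tnfrsf9, Tnfrsf13b and Tnfrsf18 had both Foxp3+ arrays at least 1.5-fold above both Foxp3- arrays, Cd27 (1.48-fold) and Fas (1.02-fold) had the same order with a narrower gap, and heights should be compared within a gene only.

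The promoters of 4 of the receptors higher with Foxp3 are shown here because they moved together, with those of Lta and Fasl for the contrasting ligand patterns described further on. Each is the 250 bases before the gene's start, 5′ to 3′ on the gene's own strand, from the RefSeq table of build GRCm38.p6; Tnfrsf9 has 2 starts there and the upstream one was used. They lie at chr4:145246871-145247120 (minus strand), chr4:156013445-156013694 (plus), chr4:150919905-150920154 (plus), chr4:156026072-156026321 (plus), chr17:35205352-35205601 (minus) and chr1:161788496-161788745 (minus). Capitals mark matches on either strand to a loose NF-kappaB pattern (GGG, then 5 bases of any kind, then CC) or to GGAAAA, the core bound by NFAT.
Tnfrsf1b: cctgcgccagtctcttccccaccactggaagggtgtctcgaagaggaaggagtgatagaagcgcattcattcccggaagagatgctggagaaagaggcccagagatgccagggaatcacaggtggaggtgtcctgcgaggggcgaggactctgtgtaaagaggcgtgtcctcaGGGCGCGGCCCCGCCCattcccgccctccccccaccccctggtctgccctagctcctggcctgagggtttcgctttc
Tnfrsf4: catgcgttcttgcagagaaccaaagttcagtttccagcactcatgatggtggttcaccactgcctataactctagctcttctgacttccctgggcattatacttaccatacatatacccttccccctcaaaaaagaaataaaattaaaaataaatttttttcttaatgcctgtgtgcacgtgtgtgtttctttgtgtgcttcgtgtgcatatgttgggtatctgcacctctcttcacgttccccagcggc
Tnfrsf9: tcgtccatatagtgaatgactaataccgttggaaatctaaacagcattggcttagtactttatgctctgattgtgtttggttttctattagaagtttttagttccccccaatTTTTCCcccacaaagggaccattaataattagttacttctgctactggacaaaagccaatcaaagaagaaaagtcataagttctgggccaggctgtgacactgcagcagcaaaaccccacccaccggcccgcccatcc
Tnfrsf18: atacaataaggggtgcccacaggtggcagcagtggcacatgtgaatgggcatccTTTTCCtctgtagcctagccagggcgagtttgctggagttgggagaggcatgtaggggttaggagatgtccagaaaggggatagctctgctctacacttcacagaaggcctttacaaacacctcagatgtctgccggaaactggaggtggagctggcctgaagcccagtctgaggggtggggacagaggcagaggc
Lta: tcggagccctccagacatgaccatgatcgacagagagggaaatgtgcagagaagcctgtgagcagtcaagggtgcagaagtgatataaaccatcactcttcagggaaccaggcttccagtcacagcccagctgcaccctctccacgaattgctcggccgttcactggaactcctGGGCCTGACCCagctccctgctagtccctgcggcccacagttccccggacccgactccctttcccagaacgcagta
Fasl: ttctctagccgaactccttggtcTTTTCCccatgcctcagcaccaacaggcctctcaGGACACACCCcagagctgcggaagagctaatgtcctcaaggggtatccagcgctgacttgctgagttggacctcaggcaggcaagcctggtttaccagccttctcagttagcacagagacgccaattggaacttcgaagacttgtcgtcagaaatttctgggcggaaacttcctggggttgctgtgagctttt

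These 4 receptors did not share either pattern in their windows. Tnfrsf1b held overlapping matches to the NF-kappaB pattern that began 77, 76 and 71 bases before its start, while Tnfrsf4, Tnfrsf9 and Tnfrsf18 held none of them. GGAAAA, on the reverse strand, began 138 bases before the start of Tnfrsf9 and 196 bases before that of Tnfrsf18, and was in neither Tnfrsf1b nor Tnfrsf4. Tnfrsf13b, whose window is not printed, held both patterns. In Lta the NF-kappaB pattern began 76 and 75 bases before the start, and in Fasl it began at 193 bases and GGAAAA, reversed, at 227. The NF-kappaB pattern is common, being in 45.8% of the 32851 promoter windows of this length and in 14 of the 20 measured members with a window. GGAAAA was in 20.4% of all windows and in 9 of the 20. The AP-1 pattern TGANTCA was in 2 of the 20, Fas and Tnfsf14, against 6.75% of all windows, the forkhead pattern TGTTTAC in Ltb alone, against 3.17%, and the Ets core GGAAGT in 5, against 19.7%. These are matches of letters and not measured binding.

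The other receptors did not reach the limit in the Foxp3 pairing. Cd27, a costimulatory receptor of naive and memory T cells, read 1870.4 and 1970.3 in the Foxp3+ arrays, 766 in the CD25+ Foxp3- array and 1260.2 in the CD25- Foxp3- array. The pairs did not overlap, but the gap was 1.48-fold. Cd27 was lowest in CD25+ Foxp3- cells, 2.44-fold below CD25hi Foxp3+ and 2.57-fold below CD25lo Foxp3+ cells. Tnfrsf25, which encodes the death receptor DR3 that binds TL1A, stood out in a single array, with 1080.4 in CD25hi Foxp3+ cells and 523, 525 and 585 in the other 3.

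Tnfrsf14 encodes HVEM, the receptor for LIGHT that also binds the inhibitory receptor BTLA. It read 159.8 in CD25hi Foxp3+, 60.2 in CD25lo Foxp3+, 83.8 in CD25+ Foxp3- and 218 in the CD25- Foxp3- population. The sorted extremes, CD25hi Foxp3+ and CD25- Foxp3-, were thus the high arrays, and the gap of that pairing, which follows neither marker, was 1.91-fold. In that pairing Tnfrsf14 was the 1 member higher, where 1.45% of measured genes were higher.

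Tnfrsf1a and Fas, the death domain receptors TNFR1 and CD95, varied little. Tnfrsf1a lay between 202 and 280.2 with no split by either marker. Fas read 234, 225 and 221 in the 3 populations with CD25 or Foxp3 and 136 in CD25- Foxp3- cells, a ratio of 1.72 between its highest and lowest array. Of the 5 listed receptors with a death domain these and Tnfrsf25 were measured, while Tnfrsf10b (the TRAIL receptor) and Tnfrsf21 (DR6) were under the filter intensity. Tnfrsf13c, the BAFF receptor, lay at the filter itself, with 30.0, 35.9, 31.5 and 27.5.

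A further 6 receptors were under the filter intensity in every array. They were Tnfrsf8 (CD30), Tnfrsf11a (RANK, which binds the Tnfsf11 product), Tnfrsf17 (BCMA), Tnfrsf19, Cd40 and Ltbr (the lymphotoxin beta receptor). The highest reading among them was 26.1, for Cd40 in CD25+ Foxp3- cells. RANK, CD40 and the lymphotoxin beta receptor are best known from dendritic, B and stromal cells.

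Most measured ligands had their highest value in the CD25+ Foxp3- array, some of them by a narrow margin. Of the 10 measured ligands 7 had their highest value there, Lta, Tnfsf4, Tnfsf8, Tnfsf11, Tnfsf13b, Tnfsf14 and Fasl, and of the 11 measured receptors none did. Among all measured genes 30.1% were highest in that array. Of the 7 ligands 4 reached the filter intensity in all arrays, Lta, Tnfsf8, Tnfsf11 and Fasl. Lta was nearly level with CD25hi Foxp3+ cells (341 and 336), and Fasl was 1.11-fold above CD25- Foxp3- cells (514 and 461). Tnfsf4 and Tnfsf13b reached the filter in the CD25+ Foxp3- array alone, and Tnfsf14 in the Foxp3- arrays alone. Of the genes that reached it in all arrays, 29.3% were highest in CD25+ Foxp3- cells.

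The highest array was CD25hi Foxp3+ for 6 members, where 17.7% of measured genes were highest, namely Tnfrsf4, Tnfrsf13b, Tnfrsf18, Tnfrsf25, Fas and Ltb. It was CD25lo Foxp3+ for 5, where 21.4% were, namely Tnfrsf1b, Tnfrsf9, Tnfrsf13c, Cd27 and Tnfsf10. It was CD25- Foxp3- for 3, where 30.7% were, namely Tnfrsf1a, Tnfrsf14 and Tnf. Over genes at the filter intensity in all arrays the corresponding shares were 17.8%, 21.4% and 31.5%.

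Tnfsf8 encodes CD30 ligand, a costimulatory ligand of activated T cells. It read 187 in CD25hi Foxp3+, 63.3 in CD25lo Foxp3+, 769 in CD25+ Foxp3- and 272 in the CD25- Foxp3- population. CD25+ Foxp3- cells were 12.1-fold above CD25lo Foxp3+, 4.10-fold above CD25hi Foxp3+ and 2.82-fold above CD25- Foxp3- cells. Within each Foxp3 state the array with more CD25 was higher.

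Tnfsf11 encodes RANKL, the ligand that drives osteoclast formation and lymph node development. It read 525 in CD25hi Foxp3+, 1184 in CD25lo Foxp3+, 1909 in CD25+ Foxp3- and 304 in the CD25- Foxp3- population, so the arrays with intermediate sort gates were high and the extremes low. A second probe set had the same order, with 37.5, 76.5, 156 and 13.4. By it CD25hi Foxp3+ cells were 2.80-fold above CD25- Foxp3- cells, against 1.73-fold by the brighter one. In the pairing by neither marker it was the 1 member lower, at 2.25-fold, where 1.6% of measured genes were lower. Tnfrsf14 and Tnfsf11 were also the 2 members whose CD25 difference was at least 2-fold and opposite in Foxp3+ and Foxp3- cells, as in 1.36% of measured genes.

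Tnfsf14 encodes LIGHT, the ligand of HVEM and of the lymphotoxin beta receptor. It read 15.7 and 14.6 in the Foxp3+ arrays, both under the filter intensity, 151 in the CD25+ Foxp3- array and 35.6 in the CD25- Foxp3- array. The gap between the pairs was 2.27-fold and the ratio of the Foxp3- arrays 4.25-fold. A second probe set read 4.95, 4.35, 12.6 and 4.96, under the filter intensity throughout. With the median over both the gap was -0.59 and the difference of the Foxp3- arrays 1.20 on the log2 scale, the former barely past the 1.5-fold limit. Tnfsf4 (OX40 ligand) and Tnfsf13b (BAFF) reached the filter in CD25+ Foxp3- cells alone. Tnfsf4 read 43.2 there and 14.0, 22.1 and 15.9 in CD25hi Foxp3+, CD25lo Foxp3+ and CD25- Foxp3- arrays, and Tnfsf13b read 38.5 there and 12.9, 14.9 and 5.62 in the same order. With values this near the floor the size of these folds is uncertain, and 2 further Tnfsf13b probe sets stayed under the filter in all arrays.

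Fasl encodes Fas ligand, by which cytotoxic and activated T cells kill Fas-bearing targets. It read 53.8 and 77.5 in the Foxp3+ arrays, 514 in the CD25+ Foxp3- array and 461 in the CD25- Foxp3- array, a gap of 5.95-fold that ranked 13 among measured genes. A dimmer probe set read 14.5, 17.8, 119 and 37.9 in the same order of populations. Both put the Foxp3+ arrays lowest, but the ratio of CD25+ to CD25- Foxp3- cells was 1.11-fold by the brighter and 3.13-fold by the dimmer one. Markers of CD8 T and NK cells, which also make Fas ligand, moved the same way, with 9 of 11 measured lower by the Foxp3 pairing and none higher, and their part in the Fasl and Tnfsf14 values was not tested.

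Lta encodes lymphotoxin alpha, which binds the same receptors as TNF. It read 336 in CD25hi Foxp3+, 65.7 in CD25lo Foxp3+, 341 in CD25+ Foxp3- and 120.4 in the CD25- Foxp3- population. The array sorted for more CD25 in each Foxp3 state was the high one, and these arrays were level with each other. Il2ra, which encodes CD25, did not have that order across states, with 1562 in CD25hi Foxp3+, 288 in CD25lo Foxp3+, 283 in the CD25+ Foxp3- and 22.3 in the CD25- Foxp3- array, so CD25lo Foxp3+ and CD25+ Foxp3- cells were level in Il2ra and 5.20-fold apart in Lta. In the pairing of CD25hi Foxp3+ and CD25+ Foxp3- against the other arrays Lta was the 1 member higher, with a gap of 2.79-fold that ranked 3 of 9623 genes, where 1.1% of measured genes were higher. No member was lower in that pairing, as were 0.187% of measured genes.

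The other measured ligands differed less. Tnf itself read 94.0 and 87.1 in the Foxp3+ arrays and 119.6 and 120.3 in the Foxp3- arrays, short of the 1.5-fold gap. Ltb, which joins lymphotoxin alpha in a membrane-bound heterotrimer, lay between 2771 and 4199.6 with a ratio of 1.52 between its extremes. Tnfsf10, the death ligand TRAIL, was the ligand lowest in CD25- Foxp3- cells beside Tnfsf11 and Tnfsf13b. It read 219 and 222 in the Foxp3+ arrays, 149 in the CD25+ Foxp3- array and 80.5 in the CD25- Foxp3- array, and its other 2 probe sets were also lowest in CD25- Foxp3- cells, at 50.2 and 14.0. By those CD25+ Foxp3- cells were 3.26-fold and 2.35-fold above CD25- Foxp3- cells, against 1.85-fold by the brightest.

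The ligands Tnfsf9 (4-1BB ligand), Cd40lg and Cd70 were under the filter intensity in all 4 arrays. Tnfsf9 reached 31.3 in CD25+ Foxp3- cells, just short of it. Cd40lg, the helper T cell ligand of CD40, had its highest reading in CD25- Foxp3- cells, at 14.4.

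**Figure D2:**
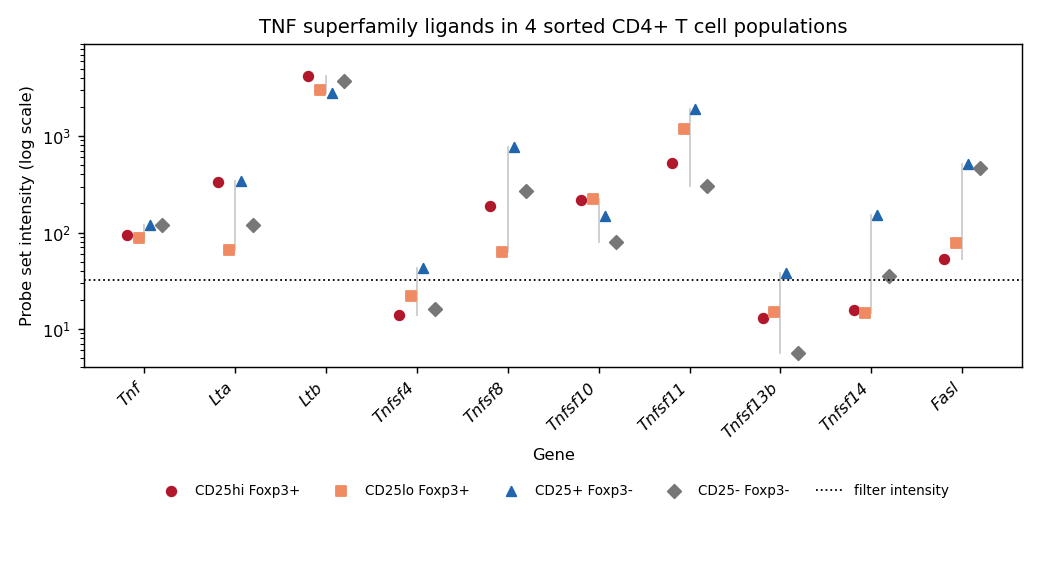
Intensity of each measured TNF superfamily ligand (horizontal axis, 10 genes) in the 4 arrays, 1 symbol per population, on a log scale with no error bars (1 array each) and with the filter intensity of 32.5 as a dotted line. The blue triangle of CD25+ Foxp3- cells is the highest symbol for 7 of the 10 genes. For Lta it is nearly level with CD25hi Foxp3+ cells, and for Fasl it is 1.11-fold above CD25- Foxp3- cells. For Fasl and Tnfsf14 both Foxp3+ arrays lie at least 1.5-fold below both Foxp3- arrays, an order that Tnfsf8 (1.45-fold) and Tnf (1.27-fold) share with a narrower gap.

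Receptors and ligands were counted in opposite directions between Foxp3+ cells and CD25+ Foxp3- cells, the populations that share CD25. CD25hi Foxp3+ cells had 6 members at least 2-fold higher than CD25+ Foxp3- cells, where 4.82% of measured genes were, and 6 lower, where 6.84% were. The 6 higher were all receptors, Tnfrsf1b, Tnfrsf4, Tnfrsf9, Tnfrsf18, Tnfrsf25 and Cd27, and the 6 lower were all ligands, Tnfsf4, Tnfsf8, Tnfsf11, Tnfsf13b, Tnfsf14 and Fasl. Tnfsf14 was 9.63-fold and Fasl 9.55-fold lower, and Tnfrsf18 was 3.84-fold higher. Of the 6 ligands 3 reached the filter intensity in all arrays, Tnfsf8, Tnfsf11 and Fasl. Tnfsf4 and Tnfsf13b passed the filter only through the CD25+ Foxp3- array, and Tnfsf14 only through the Foxp3- arrays. This helped to decide that these ligands could count as lower.

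CD25lo Foxp3+ cells were divided from CD25+ Foxp3- cells in the same manner. The 5 members higher, where 5.16% of measured genes were, were the receptors Tnfrsf1b, Tnfrsf4, Tnfrsf9, Tnfrsf18 and Cd27. The 5 lower, where 9.04% were, were the ligands Lta, Tnfsf8, Tnfsf13b, Tnfsf14 and Fasl. Of these, Lta, Tnfsf8 and Fasl reached the filter intensity in all arrays. Tnfsf13b and Tnfsf14 passed the filter only through Foxp3- arrays, which helped to decide that they could count as lower. These comparisons share the CD25+ Foxp3- array. That array also had the lowest summed T cell markers, at 32765 against 44487 or more in the others, and the highest sum of 3 gamma delta T and NKT cell markers, at 555 against at most 151, whose part in these values was not tested.

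Over all 13 ligands with a probe set, measured or not, the median log2 difference of CD25hi Foxp3+ from CD25+ Foxp3- cells was -0.87, and for all 19 receptors it was 0.08, beside 0 for all 18194 genes. Genes under the floor in both arrays differ by exactly 0, which draws that last median to 0, so it is no yardstick. In CD25+ against CD25- Foxp3- cells the ligand median was 1.01 and the receptor median 0.10. Both ligand medians were the value of the middle gene, Tnfsf9, which was under the filter intensity in every array.

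Against CD25- Foxp3- cells, each of the other populations had more members high than low. CD25hi Foxp3+ cells had 7 higher, where 7.09% of measured genes were, and 2 lower, where 3.74% were. The higher were the 5 receptors of the Foxp3 pairing with Lta and Tnfsf10. CD25lo Foxp3+ cells had 6 higher (9.09% of measured genes), the receptors Tnfrsf1b, Tnfrsf4, Tnfrsf9 and Tnfrsf18 and the ligands Tnfsf10 and Tnfsf11. In the same cells 4 were lower (6.88%), namely Tnfrsf14, Tnfsf8, Tnfsf14 and Fasl. CD25+ Foxp3- cells had 9 higher (12.1%), namely Tnfrsf1b, Tnfrsf4, Tnfrsf9 and 6 ligands, and 1 lower (6.43%), Tnfrsf14. Of the 6 ligands, Tnfsf4, Tnfsf13b and Tnfsf14 did not reach the filter intensity in all arrays. Tnfsf14 reached it in the Foxp3- arrays alone, and the other 2 of these in CD25+ Foxp3- cells alone. With the median over a gene's probe sets Tnfsf14 was no longer 2-fold lower in CD25hi or CD25lo Foxp3+ cells (-0.59 and -0.64 on the log2 scale), nor Tnfrsf1b 2-fold higher in CD25+ Foxp3- cells (0.52). These 3 comparisons share 1 control array.

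Within the Foxp3+ cells the CD25hi array had 4 members at least 2-fold higher than the CD25lo array, where 3.21% of measured genes were, and 1 lower, where 2.5% were. The higher were Lta at 5.12-fold, Tnfsf8 at 2.96-fold, Tnfrsf14 at 2.65-fold and Tnfrsf25 at 2.07-fold. The lower was Tnfsf11 at 2.25-fold. The 5 receptors of the Foxp3 pairing were all within 2-fold between these arrays.

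**Figure D3:**
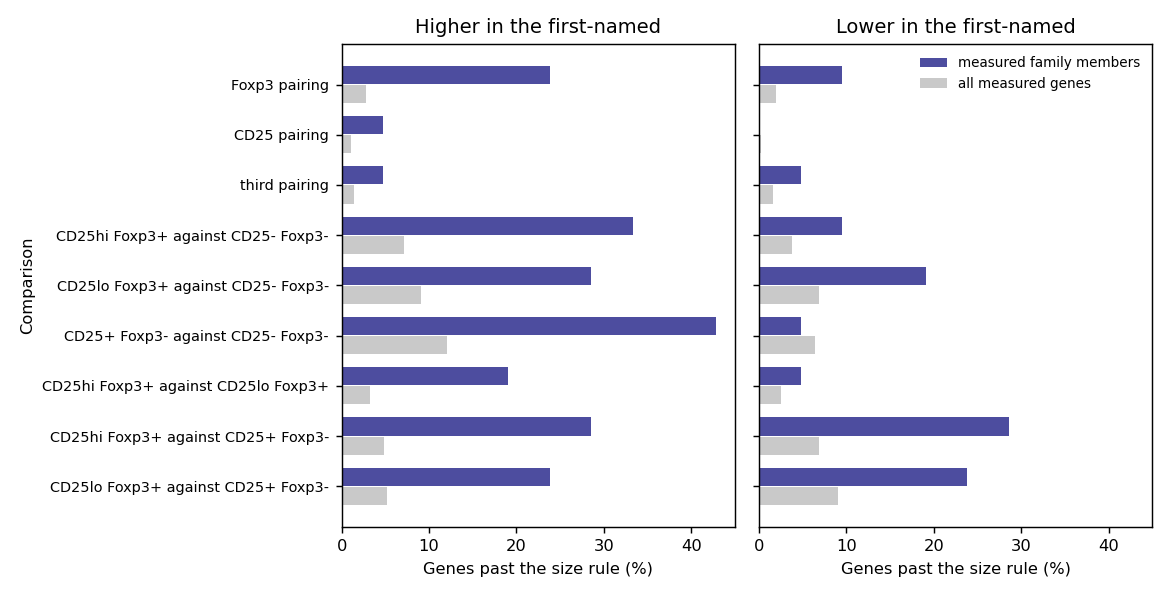
Share of measured genes past the size rule (horizontal axis, percent) in 3 pairings and 6 comparisons of 2 arrays, for the 21 measured family members (blue bars) and all 9623 measured genes (grey bars), higher at left and lower at right; the CD25 pairing sets CD25hi Foxp3+ and CD25+ Foxp3- against the rest, and the third pairing CD25hi Foxp3+ and CD25- Foxp3- against the rest. In CD25hi Foxp3+ against CD25+ Foxp3- cells 28.6% of members were higher and 28.6% lower, beside 4.82% and 6.84% of all genes. Among the lower ones, Tnfsf4 and Tnfsf13b reached the filter intensity in CD25+ Foxp3- cells alone, and Tnfsf14 in the Foxp3- arrays alone.

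Receptors could be set beside a ligand that binds them, each gene relative to its own lowest array. For OX40 and its ligand, Tnfrsf4 was highest in CD25hi Foxp3+ cells, and Tnfsf4 reached the filter intensity in CD25+ Foxp3- cells alone. HVEM and LIGHT were also unlike, since Tnfrsf14 was highest in CD25- Foxp3- cells and Tnfsf14 in CD25+ Foxp3- cells. Fas was nearly level in the 3 populations with CD25 or Foxp3, whereas Fasl in CD25+ Foxp3- cells was 9.55-fold above CD25hi Foxp3+ cells. For TNFR2 and lymphotoxin alpha, Tnfrsf1b was highest and Lta lowest in CD25lo Foxp3+ cells, and Tnf, its other ligand, was nearly level. Tnfrsf9, Cd27, Tnfsf8 and Tnfsf11 were not set beside a partner, because Tnfsf9, Cd70, Tnfrsf8 and Tnfrsf11a were under the filter intensity.

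**Figure D4:**
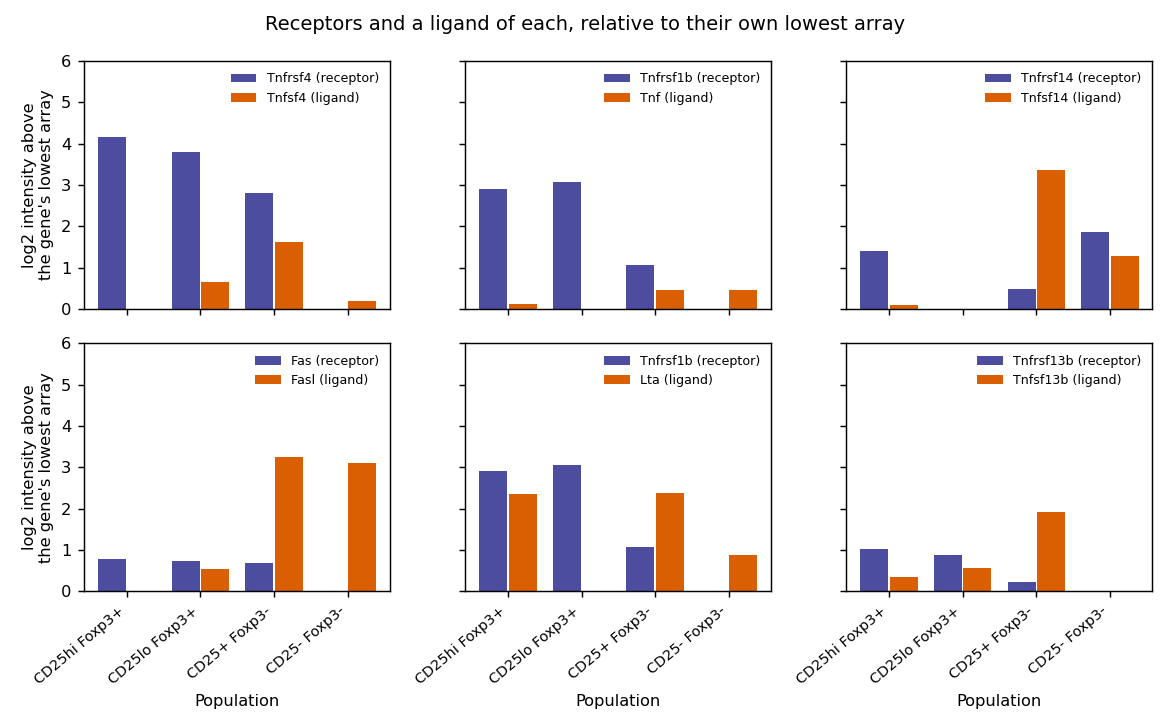
Log2 intensity above the gene's own lowest array (vertical axis) for 6 pairs of a measured receptor and a measured ligand in the 4 populations, after values under 10.1 were set to it; each bar is 1 array. The Tnfsf4, Tnfsf14, Fasl and Tnfsf13b bars are tallest in CD25+ Foxp3- cells, Lta is about as tall there as in CD25hi Foxp3+ cells (2.38 and 2.36), and Tnf stays under 0.47.

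Several members are chromosome neighbours, by the order of protein-coding genes in RefSeq. Tnfrsf4 and Tnfrsf18 adjoin on chromosome 4 and were both high in the Foxp3+ arrays, but CD25+ Foxp3- cells stood 6.98-fold above CD25- Foxp3- cells for Tnfrsf4 and under 2-fold for Tnfrsf18. Tnfrsf1b adjoins Tnfrsf8 on the same chromosome, and Tnfrsf8 was under the filter intensity. Ltb, Tnf and Lta follow each other on chromosome 17, and of the 3 only Lta passed any rule. Tnfsf4 and Fasl on chromosome 1 are separated by Tnfsf18, a listed family gene that had no probe set assigned to it alone. Both were highest in CD25+ Foxp3- cells, Fasl by 1.11-fold over CD25- Foxp3- cells, while Tnfsf4 reached the filter intensity in that array alone. On chromosome 17 Tnfsf9, Cd70 and Tnfsf14 are adjacent, and only Tnfsf14 was measured.

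The genes listed for signalling from these receptors varied less than the members. The list takes in Traip, Traf3ip1 and Traf3ip2, whose part in these signals was not tested. Of 50 listed signalling genes, which include TRAF adaptors, death domain adaptors, inhibitor of apoptosis proteins, kinases and NF-kappaB subunits, 44 were measured. None passed the Foxp3 pairing, where 4.73% of measured genes passed in either direction, nor the pairings by CD25 or by neither marker, where 1.29% and 3.06% did. At those shares few of 44 genes would pass. Against CD25- Foxp3- cells 5 of the 44 were 2-fold apart in CD25hi Foxp3+ (10.8% of measured genes), 5 in CD25lo Foxp3+ (16%) and 7 in CD25+ Foxp3- cells (18.5%). As shares of the 44 these counts were near or below those of all measured genes. Against CD25+ Foxp3- cells 2 were apart in CD25lo Foxp3+ cells (14.2%) and none in CD25hi Foxp3+ cells (11.7%). Between the Foxp3+ arrays none was (5.72%). Taking the median over a gene's probe sets instead, 1 gene, Traf1, was higher with Foxp3. A gene's highest array was at least 2-fold above its lowest for 9 of the 44, against 32.6% of all measured genes, 8 of the 11 receptors and 8 of the 10 ligands. The mean log2 difference between Foxp3+ and Foxp3- arrays ran from -0.82 to 0.82 in signalling genes, from -0.46 to 2.58 in receptors and from -2.92 to 1.01 in ligands.

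The signalling genes that were 2-fold apart were so mainly against CD25- Foxp3- cells. The values of Rel, Map3k14, Tank and Nfkb2 are given here, chosen after they were seen. Map3k7, Map3k5, Traip, Ikbke and Madd were also 2-fold apart in at least 1 comparison. Rel, which encodes the NF-kappaB subunit c-Rel, read 109 and 130.1 in the Foxp3+ arrays, 138 in the CD25+ Foxp3- array and 47.4 in the CD25- Foxp3- array. Map3k14, the NF-kappaB inducing kinase NIK, ran the other way, at 128 and 82.0 in the CD25hi and CD25lo Foxp3+ arrays, 111 in the CD25+ and 294 in the CD25- Foxp3- array. Tank, a TRAF-binding adaptor, read 2199, 2960 (CD25lo Foxp3+), 1950.4 (CD25+ Foxp3-) and 1064. Nfkb2, the precursor of the p52 subunit, read 460 and 366 in both Foxp3+ populations, 501 in CD25+ Foxp3- and 221 in the CD25- Foxp3- population.

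**Figure D5:**
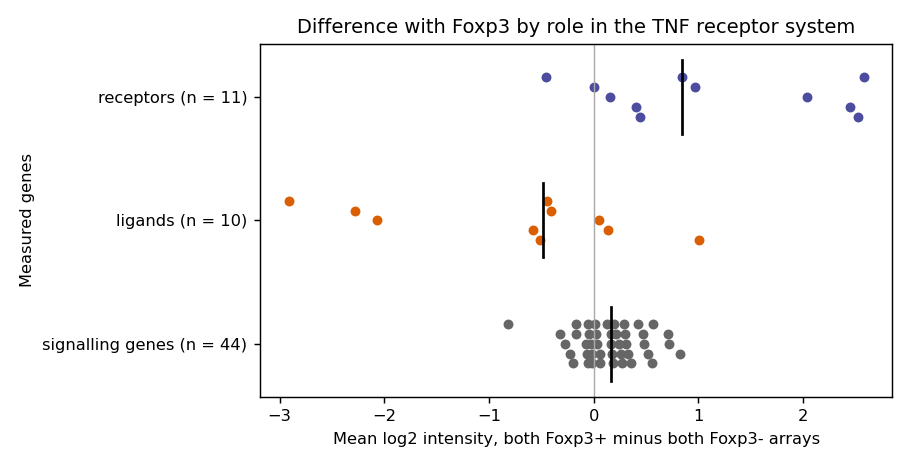
Difference in mean log2 intensity between the 2 Foxp3+ and the 2 Foxp3- arrays (horizontal axis) for measured receptors, ligands and signalling genes (vertical axis); each point is 1 gene, black lines are medians and the vertical jitter has no meaning. Signalling genes lie between -0.82 and 0.82, receptors reach 2.58 and ligands reach down to -2.92.

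Of 11 family genes outside the member list, Tnfrsf12a and Relt were measured. Tnfrsf12a, the TWEAK receptor Fn14, read 47.2, 38.2, 37.3 and 77.7, highest in CD25- Foxp3- cells, and Relt read 137, 107, 127 and 188 with the same array highest. Among 7 genes that process ligands, Adam10, Adam17 and Furin were measured. Adam17, the protease that releases soluble TNF, read 955, 1410 (CD25lo Foxp3+), 743 and 714. Furin, a protease of the secretory pathway, lay near the filter, with 30.7, 31.6, 36.6 and 24.2. Adam10, which cleaves several membrane ligands, read 1582 in CD25hi Foxp3+, 2543 in CD25lo Foxp3+, 2517 in CD25+ Foxp3- and 1381 in the CD25- Foxp3- population. It passed the pairing by neither marker with a gap of 1.59-fold, high in the same pair of arrays as Tnfsf11.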

How the data were processed

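The deposited table holds 1 intensity per probe set and sample on a linear scale; the authors' summarisation, background correction and normalization are not given in the sources used here. Per the labels, RNA went through 2 cycles of in vitro amplification. Array medians lay between 15.0 and 15.6, so the deposited intensity scale was kept and converted to log2. Of the probe sets, 34958 had exactly 1 gene in the platform annotation. A floor was set at the 40th percentile of the whole table, and a gene was measured when its highest value reached the 60th percentile. Where several probe sets qualified, the one with the greatest average log2 intensity stood for the gene, and the others are given where they differ. With 1 array per population no test was made, and size rules were used, with the scripts tested on simulated data. The percentage beside a count is the share of all measured genes past the same rule.

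The alternatives were a floor at the 20th percentile, no filter, the median over a gene's probe sets, leaving out probe sets marked _s_at or _x_at, and quantile normalization. The members and lists were chosen with earlier results of these data known, so their shares beside those of all measured genes are descriptive only. By the naming rule every member is named, with all measured genes of the lists of other family genes and ligand processing genes, and signalling genes past the Foxp3 or CD25 pairing. Signalling genes outside it, and the promoters printed, were chosen after their values were seen. Red cell markers on the fixed list summed to 103, 163, 483 and 842 in the CD25hi and CD25lo Foxp3+ and the CD25+ and CD25- Foxp3- arrays. Analyses used Python 3.11.15, NumPy 2.4.6 and pandas 2.3.3.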

Additional observations from a re-analysis of the deposited data

Results flagged for a closer look

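The CD25 difference ran opposite ways in the Foxp3 states for 2 members, at 2-fold or more in each, where 1.36% of the 9623 measured genes did so. Tnfrsf14 was higher with CD25 in Foxp3+ cells by 1.41 on the log2 scale and lower in Foxp3- cells, at -1.38, a difference of 2.78 between them. Tnfsf11 was lower with CD25 in Foxp3+ cells, at -1.17, and higher in Foxp3- cells, at 2.65, a difference of -3.82. With 1 array per population these differences were not tested.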

How the results depend on the processing

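The number of members past each size rule stayed within 1.5 times its reported value under all 5 alternatives. Of 327 member values past a rule and recomputed, 324 were still past it and 0 changed direction. Many of these values could hardly change, so the total says little about robustness. Dropping the filter leaves the values of a measured gene as they are. No measured member was read from an _s_at or _x_at probe set, and among them only Tnfsf13b had an array at the floor. The 3 lost were all under the median over probe sets: Tnfsf14 in CD25hi and in CD25lo Foxp3+ against CD25- Foxp3- cells, and Tnfrsf1b in CD25+ against CD25- Foxp3- cells. Tnfsf13b was not measured under that alternative. The count of signalling genes in the Foxp3 pairing moved from 0 to 1 with the median over probe sets, the gene being Traf1. No paired analysis was possible because each population is 1 array. The spread between arrays of the same population is unknown, and ligands near the filter intensity of 32.5 (Tnfsf4, Tnfsf13b) are limited by signal over background.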

Other observations

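Probe sets that the annotation assigns to several genes were left out of the family. The probe set shared by Tnfsf12, Tnfsf13 and their read-through transcript Tnfsfm13 read between 6.04 and 6.90 in the 4 arrays, under the floor. That shared by Tnfsf12 and Tnfsfm13 read 11.4 in CD25hi Foxp3+, 13.6 in CD25lo Foxp3+, 12.9 in CD25+ Foxp3- and 12.5 in the CD25- Foxp3- population, under the filter intensity.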
